A study of Mus musculus with 41 samples.

Results

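The comparison set livers of the genotype labelled CD8kMup against livers of the genotype labelled MupHe, within the groups marked NC. Its members were the 6 libraries whose column names carry the same NC tag, 3 of CD8kMup and 3 of MupHe, out of 41 libraries in the series. Of 24511 genes in the deposited table, 12279 had a mean of at least 3 over the 12 NC libraries and were tested. The series profiled polyA RNA from liver and liver tumours of male mice of the C57BL/6 strain by RNA-seq. All NC livers are labelled healthy. The labels explain neither NC nor the alleles behind the genotype names, and they give no ages. From what is known of the study, Mup stands for the MUP-uPA transgene, which drives urokinase (uPA) in hepatocytes from a major urinary protein promoter. CD8k and IgAk stand for crosses that lack CD8 T cells or immunoglobulin A. On this reading CD8kMup, IgAkMup and MupHe livers all carry the transgene, and B6 livers are the wild type. The other NC groups, IgAkMup and B6, held 3 libraries each and served to place the comparison. Tumours of CD8kMup and MupHe, whose titles carry HFD, are compared near the end.

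Urokinase made in hepatocytes stresses the endoplasmic reticulum of these cells and causes injury and compensatory growth, which is why MUP-uPA mice are used as a model of steatohepatitis and liver cancer. CD8 T cells are cytotoxic lymphocytes that recognise peptides on MHC class I and kill the cells that present them. Hepatocytes make up most of the RNA of a whole liver. They carry out fatty acid oxidation and synthesis, bile acid synthesis and drug metabolism, and in male mice they secrete large amounts of major urinary proteins. In such bulk tissue, fewer cells of a type and less RNA per cell cannot be told apart.

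Values are regularized log2 expression (rlog), on which a step of 1 stands for a doubling. Each difference is CD8kMup minus MupHe unless another pair is named. A gene passed the test when its adjusted p was under 0.05 in limma. Groups are said not to overlap when every CD8kMup library lay above, or every one below, every MupHe library. The sequencing depth behind the values is unknown. Since no label ties a replicate to an animal of its own, p-values measure only the spread between these libraries.

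Secreted hepatocyte proteins averaged an rlog of 14.4 to 14.6 in CD8kMup livers and 14.4 to 14.5 in MupHe livers, so hepatocyte RNA was abundant in both. CD8kMup library 1 stood apart from its group. Its root mean square difference over all kept genes was 0.276 and 0.294 to the other CD8kMup libraries, against 0.249 and 0.253 to MupHe libraries 3 and 2. CD8kMup libraries 2 and 3 differed by 0.218, and MupHe libraries differed from each other by 0.240 to 0.254. Results are therefore given with and without CD8kMup library 1. Since it is the CD8kMup library nearest to MupHe, leaving it out widens the difference by that choice. Genes whose groups do not overlap then made up 16.9% in the higher and 16.4% in the lower direction, against 8.73% and 7.74% with it. Part of this rise comes with any smaller group. The shares were 13.7% and 12.8% without MupHe library 1, 14.1% and 13.0% without MupHe library 2, and 13.3% and 12.4% without MupHe library 3. Without CD8kMup library 2 they were 11.9% and 10.9%. Values without CD8kMup library 1 are a description and support no call. A list of adipose, muscle, pancreas and gut markers had 5 of 19 members kept, and its mean rlog was 4.52 to 5.28 in CD8kMup livers, 4.72 to 5.24 in IgAkMup livers, 4.85 to 6.59 in MupHe livers and 4.81 to 8.61 in B6 livers. The high values were those of MupHe library 1 and B6 library 1.

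The targets implied by the genotypes were examined first. Cd8a (chromosome 6, 71373427 to 71379173, GRCm38) encodes the CD8 alpha chain. It stood at 3.34, 4.20 and 3.88 in the CD8kMup libraries and at 3.71, 3.11 and 3.35 in the MupHe libraries. The groups overlapped, and the mean of 3.80 ± 0.43 (SD, n = 3) in CD8kMup livers was not below the 3.39 ± 0.30 (n = 3) in MupHe livers (exact two-sided permutation test, p = 0.3, adjusted p = 0.45 over 3 tests). Cd8b1, the beta chain, was too low to enter the fit, at 1.81 ± 0.08 in CD8kMup livers and 2.03 ± 0.23 in MupHe livers (SD, n = 3 each, exact p = 0.2, adjusted p = 0.45). With 3 libraries against 3, the smallest p that this test can give is 0.1. The Cd8a value therefore does not check the genotype labels, and since the allele is not named, it is not known whether the counted part of the gene is deleted. Directions below are those of the libraries labelled CD8kMup. Plau, the mouse urokinase gene, was at 4.36, 4.86 and 4.91 in CD8kMup livers and at 4.83, 4.74 and 4.84 in MupHe livers, and the groups overlapped (exact p = 1). Igha was not analysed here.

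Differences between the genotypes were few once corrected for all genes. In the libraries labelled CD8kMup, Cyp2c37 and Nt5c3 rose and Neat1, Nnt, Hist1h1c and Srp68 fell relative to MupHe. These 6 genes were 0.0489% of the 12279 tested, and 1081 genes had an unadjusted p under 0.05. None of the 6 is on the list of T cell genes. All 6 had groups that did not overlap, as did 8.73% of all kept genes in the higher direction (1072 genes) and 7.74% in the lower direction (950 genes).

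Neat1 (chromosome 19, 5824708 to 5845478) is a long noncoding RNA that scaffolds nuclear paraspeckles. It stood at 9.13, 9.15 and 8.86 in CD8kMup livers and at 10.02, 10.04 and 9.89 in MupHe livers. Every CD8kMup library lay below every MupHe library, and Neat1 fell by 0.94 ± 0.11 (SE) with an adjusted p of 0.00929. The same RNA was at 9.16, 9.50 and 9.42 in IgAkMup livers and at 10.11, 9.97 and 10.23 in B6 livers. The list of nuclear retained RNAs that holds it had 8 of 9 members kept and a median difference of -0.03, and Neat1 was its only member past the threshold.

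Nnt (chromosome 13, 119335448 to 119408997) encodes the mitochondrial nicotinamide nucleotide transhydrogenase, which makes NADPH in mitochondria and is partly deleted in the C57BL/6J substrain. It stood at 8.56, 8.93 and 8.73 in CD8kMup livers and at 9.41, 9.44 and 9.38 in MupHe livers. Nnt fell by 0.67 ± 0.08 (SE, adjusted p = 0.0116). IgAkMup livers held 8.83, 8.84 and 8.84, within the CD8kMup range, and B6 livers held 10.06, 10.02 and 10.09, above all other NC livers. Nnt also fell by 0.65 in MupHe relative to B6 livers (adjusted p = 0.00235). The labels name no substrain, and its part in these values was not tested.

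Hist1h1c (chromosome 13, 23738808 to 23740367), a linker histone H1 gene, stood at 6.42, 6.11 and 6.33 in CD8kMup livers and at 6.95, 7.03 and 7.01 in MupHe livers, and it fell by 0.71 ± 0.10 (SE, adjusted p = 0.0317). Srp68 (chromosome 11, 116245166 to 116274217) encodes a subunit of the signal recognition particle, which brings secretory proteins to the endoplasmic reticulum. It stood at 8.52, 8.59 and 8.65 in CD8kMup livers and at 8.99, 9.06 and 9.09 in MupHe livers, and it fell by 0.46 ± 0.07 (SE, adjusted p = 0.0317). For both genes the CD8kMup libraries also lay below the B6 libraries, with an adjusted p of 0.000907 for Hist1h1c and 0.0219 for Srp68.

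Cyp2c37 (chromosome 19, 39992424 to 40012243) encodes a liver cytochrome P450 that acts on arachidonic acid. It stood at 11.16, 11.33 and 11.18 in CD8kMup livers and at 10.44, 10.69 and 10.48 in MupHe livers, and it rose by 0.68 ± 0.10 (SE, adjusted p = 0.0317). B6 livers were higher than both, at 11.73, 11.70 and 12.03, so that CD8kMup libraries lay between MupHe and B6. Nt5c3 (chromosome 6, 56882400 to 56923932), a cytosolic nucleotidase of pyrimidine nucleotides, stood at 7.93, 8.10 and 7.98 in CD8kMup livers and at 7.33, 7.55 and 7.22 in MupHe livers. It rose by 0.64 ± 0.10 (SE, adjusted p = 0.0317), and B6 livers, at 7.37, 7.42 and 7.43, lay within the MupHe range.

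**Figure D1:**
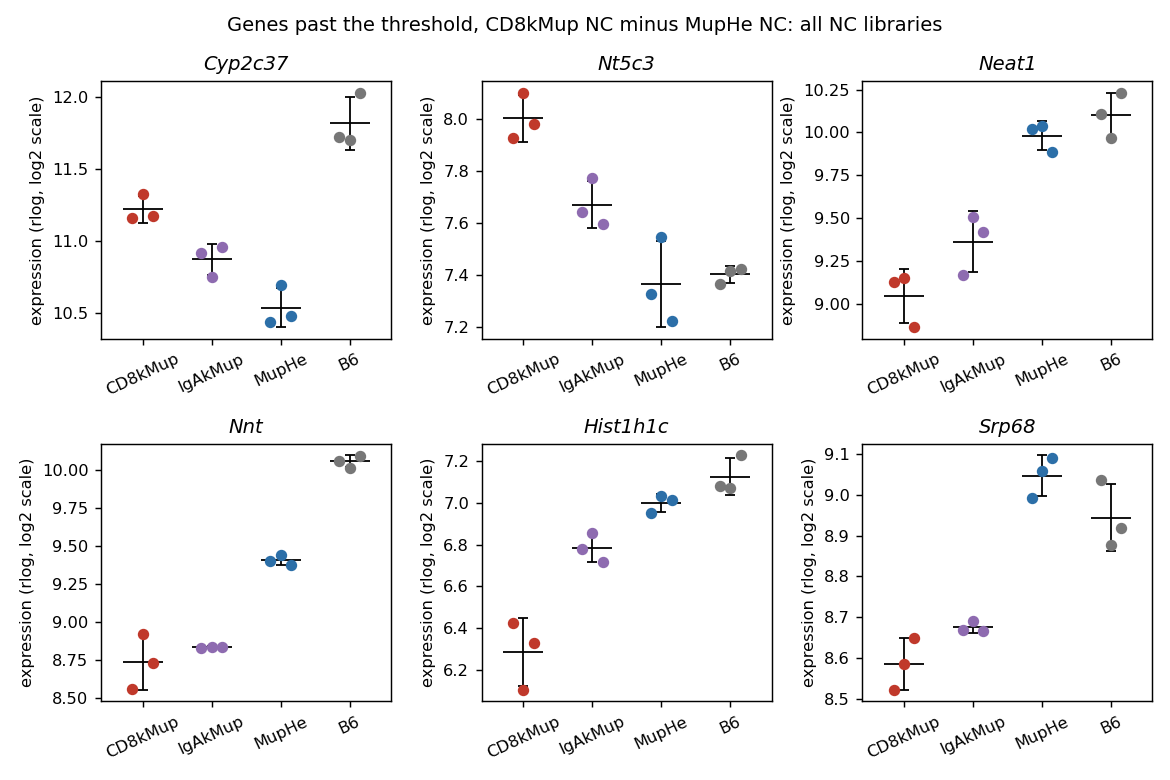
Rlog expression (log2 scale, vertical axes that do not start at 0) of the 6 genes past the threshold in every NC library, by genotype, with the mean and SD in black. Cyp2c37 and Nt5c3 are higher in all CD8kMup libraries than in all MupHe libraries, and Neat1, Nnt, Hist1h1c and Srp68 are lower.

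These calls rest on all libraries being present. Without MupHe library 1, MupHe library 2 or CD8kMup library 3 no gene passed by limma, with 894, 961 and 894 genes at an unadjusted p under 0.05. Without MupHe library 3 or CD8kMup library 2 there were 1 and 2, and without CD8kMup library 1 there were 55, which included all 6.

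The naming rule added the genes of smallest p on each side that did not pass. Angptl4, a secreted inhibitor of lipoprotein lipase and a PPAR target, stood at 9.10, 9.29 and 9.45 in CD8kMup livers and at 8.40, 8.23 and 7.98 in MupHe livers, a difference of 1.08 ± 0.19 (SE, adjusted p = 0.117). Ect2, which is needed for cytokinesis, differed by 0.85 ± 0.14 (SE, adjusted p = 0.0852). Spata2l differed by 0.68 ± 0.13 (adjusted p = 0.128), and Creb3l2, a membrane-bound transcription factor of the secretory pathway, by -0.68 ± 0.12 (adjusted p = 0.119). The groups did not overlap for any of these 4 genes.

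Of the 48 gene lists, the major urinary proteins had the largest median difference. These are small secreted pheromone carriers made by male hepatocytes under growth hormone, and their genes form a cluster on chromosome 4. A promoter of this family drives the MUP-uPA transgene, so the windows around its TATA motif are shown here. Of 17 kept members, 11 had a promoter entry in RefSeq (GRCm38.p6). In 7 of these, TATATA with 20 bases before it and 4 after it lay within the 250 bases before the start. TATATA reads the same on both strands, and 5.56% of 27025 mouse promoters held it anywhere in that stretch, without the rule on flanking bases. Each window runs 5′ to 3′ on the gene's strand, with TATATA in capitals.
Mup17, chr4:61595848-61595877, minus strand: aacccgctgaacccagagagTATATAagga
Mup15, chr4:61439720-61439749, minus strand: aacccgctgaacccagagagTATATAagga
Mup2, chr4:60139874-60139903, minus strand: aacccgctgaacccagagagTATATAagga
Mup9, chr4:60421974-60422003, minus strand: accccgctgaacccagagagTATATAagga
Mup18, chr4:61674113-61674142, minus strand: aaaacactgaacccagagagTATATAagga
Mup6, chr4:60003432-60003461, plus strand: aatccactgaacccagagagTATATAaaga
Mup3, chr4:62087319-62087348, minus strand: agtccactgaaaccagagagTATATAagga
The windows of Mup2 and Mup15 are identical to that of Mup17 in all 30 bases, and those of Mup9, Mup18, Mup6 and Mup3 in 29, 27, 27 and 26 bases.

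All 17 kept major urinary protein genes had a lower mean in CD8kMup than in MupHe livers, and 16 of them had groups that did not overlap, against 7.74% of all genes. The median difference was -1.85, with a range of -3.35 to -0.35, beside a median of 0.00 over all kept genes. None passed the test across all genes. The groups of Mup21 overlapped, at 9.90, 10.06 and 9.41 in CD8kMup livers and 10.66, 9.98 and 9.80 in MupHe livers, and this gene is named because of that value.

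The 3 members with the largest differences were Mup17, Mup9 and Mup15. Mup17 stood at 12.58, 9.68 and 9.48 in CD8kMup livers and at 13.70, 14.36 and 13.71 in MupHe livers, a difference of -3.35 ± 0.78 (SE, adjusted p = 0.204). CD8kMup library 1 lay between its group and MupHe. Mup18 had the smallest p of the family. It stood at 5.07, 3.49 and 3.41 in CD8kMup livers and at 6.05, 6.20 and 5.94 in MupHe livers, a difference of -2.07 ± 0.41 (SE, adjusted p = 0.175). Mup14 differed by -1.85 ± 0.44 (adjusted p = 0.204) and Mup8 by -1.19 ± 0.28 (adjusted p = 0.201). Mup9, Mup15, Mup2 and Mup6, whose windows are shown, differed by -3.11, -3.01, -2.97 and -1.51. Among the 7 genes with a window, Mup3 differed least, at 15.36, 15.18 and 14.83 in CD8kMup livers and 15.65, 15.40 and 15.38 in MupHe livers (-0.35 ± 0.15 SE, adjusted p = 0.52).

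When CD8kMup library 1, the one nearest to MupHe, was left out, the median of the family was -2.35. Mup17 then differed by -4.35 and Mup18 by -2.61. The choice of library widens these differences, so no call is made from them. In that comparison 16 genes of the family had groups that did not overlap, against 16.4% of all genes in the lower direction.

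The family's values cannot be read as 17 separate measurements. The share of 50-base stretches of a gene's transcripts that also occur in another major urinary protein gene was 100% for Mup15, 78.1% for Mup17 and 89.6% for Mup18. It was 1.68% for Mup6, 4.66% for Mup20 and 12.6% for Mup3, so the levels of these 3 genes depend least on how shared reads were counted. Mup20, which encodes the male pheromone darcin, stood at 14.83, 14.88 and 14.45 in CD8kMup livers and 15.17, 15.18 and 15.25 in MupHe livers, a difference of -0.48 ± 0.15 (SE, adjusted p = 0.401).

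The B6 and IgAkMup livers place this shift. The median of the 17 genes was -0.35 for CD8kMup minus IgAkMup, where no gene had groups that did not overlap, and -0.90 for CD8kMup minus B6. It was 1.07 for MupHe minus B6 and -1.50 for IgAkMup minus MupHe. These comparisons share libraries with the main one. The mean deviation of the family from its mean over NC livers was 0.36, -0.94 and -1.44 in the CD8kMup libraries, 0.22, -0.73 and -0.75 in the IgAkMup libraries, 1.13, 1.19 and 1.03 in the MupHe libraries and -0.56, 0.82 and -0.33 in the B6 libraries. The MupHe libraries were the highest of the NC livers and lay close together, while the libraries of each other genotype spread widely.

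**Figure D2:**
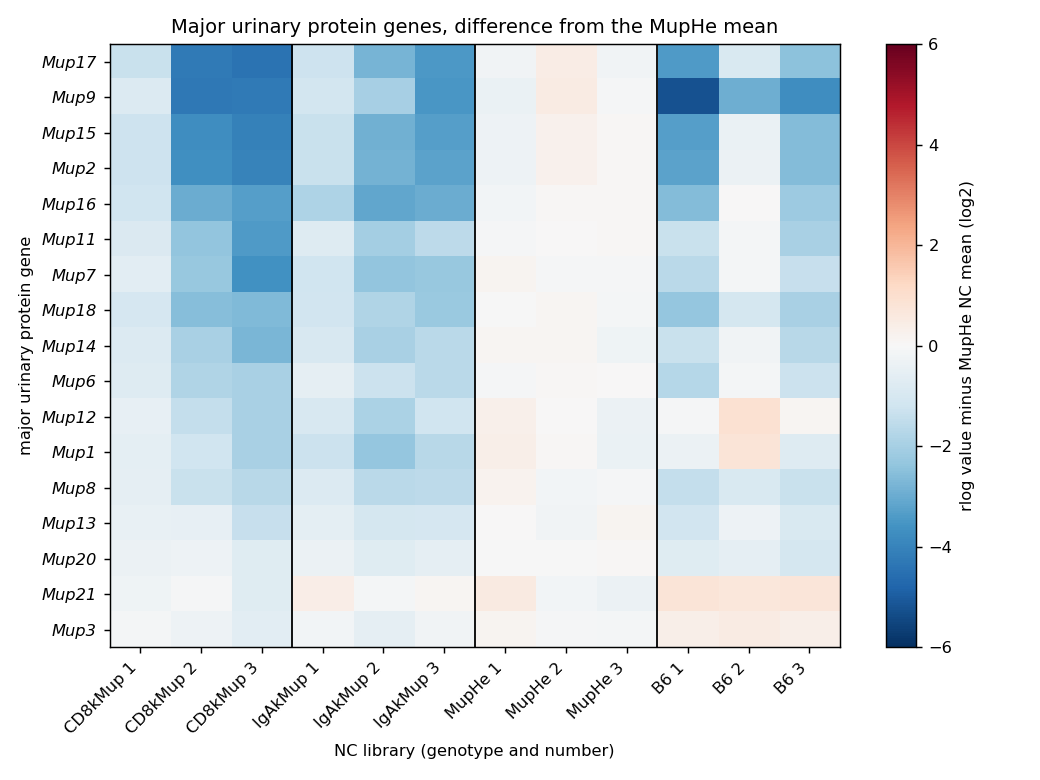
Rlog value of the 17 kept major urinary protein genes in each NC library (columns, genotype and number) minus the mean of the MupHe libraries, with blue for lower and red for higher. CD8kMup libraries 2 and 3 are the furthest below MupHe for most members, and CD8kMup library 1 is paler than both.

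None of the other genes on the lists of sex-dependent expression in liver passed the test. Of 23 genes higher in male liver, 8 lay lower in all CD8kMup libraries and 1 higher, with a median difference of -0.32. Against these counts, 7.74% of all genes lay lower and 8.73% higher. The list shares Mup3, Mup20 and Mup21 with the family above. Serpina12, the adipokine vaspin, stood at 7.66, 6.84 and 6.94 in CD8kMup livers and 8.39, 8.20 and 8.23 in MupHe livers (-1.13 ± 0.43 SE, adjusted p = 0.473). Gstp1, a glutathione transferase, stood at 11.75, 11.57 and 11.12 in CD8kMup livers and 11.99, 11.99 and 12.06 in MupHe livers (-0.53 ± 0.19 SE, adjusted p = 0.454). Of 13 kept genes higher in female liver, 3 lay higher in all CD8kMup libraries and none lower, with a median of 0.35. Cyp2a4, a testosterone hydroxylase, stood at 7.27, 9.06 and 9.13 in CD8kMup livers and 7.08, 5.91 and 7.03 in MupHe livers (1.82 ± 0.57 SE, adjusted p = 0.401). Abcd2, a peroxisomal transporter of fatty acids, differed by 1.00 ± 0.26 (SE, adjusted p = 0.284). With CD8kMup library 1 left out, 14 of the 23 male-biased genes lay lower (median -0.41) and 4 of the 13 female-biased genes higher (median 0.40), against 16.4% and 16.9% of all genes. With CD8kMup library 3 left out instead, the medians were -0.06 for the male-biased and 0.11 for the female-biased genes.

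Genes of fatty acid oxidation and targets of PPAR alpha, the nuclear receptor that responds to fatty acids, held the highest share of members whose groups did not overlap in the higher direction, among the 46 lists with at least 5 kept members. Of 30 genes, all kept, 14 lay higher in all CD8kMup libraries and 1 lower, against 8.73% and 7.74% of all genes, and the median difference was 0.21. None passed the test. The widest differences were those of the fatty acid omega-hydroxylases. Cyp4a14 stood at 9.06, 11.19 and 11.43 in CD8kMup livers and 7.46, 8.43 and 8.38 in MupHe livers (2.47 ± 0.56 SE, adjusted p = 0.198). Cyp4a10 stood at 9.77, 11.05 and 11.44 in CD8kMup livers and 8.63, 9.47 and 9.10 in MupHe livers (1.69 ± 0.39 SE, adjusted p = 0.199). For both genes CD8kMup library 1 was the lowest of its group and still lay above every MupHe library.

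The mitochondrial beta-oxidation enzymes differed by less but with a narrow spread. Acadm, the medium-chain acyl-CoA dehydrogenase, stood at 11.58, 11.62 and 11.65 in CD8kMup livers and 11.34, 11.40 and 11.33 in MupHe livers (0.26 ± 0.07 SE, adjusted p = 0.306). Acaa2, the thiolase of the same spiral, stood at 12.72, 12.82 and 12.78 in CD8kMup livers and 12.52, 12.58 and 12.54 in MupHe livers (0.22 ± 0.07 SE, adjusted p = 0.401). The median of the 30 genes was -0.05 for CD8kMup minus IgAkMup, 0.00 for CD8kMup minus B6 and -0.23 for MupHe minus B6, so that MupHe livers were the low ones among the NC groups. Cyp4a14 and Cyp4a10 were lower in MupHe than in B6 livers (-2.69 with an adjusted p of 0.0357, and -1.99 with 0.0253). Leaving out CD8kMup library 1, 18 of the 30 genes lay higher, against 16.9% of all genes. Cyp4a14 then differed by 3.22 and Cyp4a10 by 2.18.

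Genes of fatty acid synthesis leaned the same way. Of 21 genes, 6 lay higher in all CD8kMup libraries and 1 lower, against 8.73% and 7.74% of all genes. The median was 0.21, and none passed. Me1, the malic enzyme that supplies NADPH, stood at 9.54, 9.94 and 9.96 in CD8kMup livers and 8.97, 8.98 and 8.94 in MupHe livers (0.85 ± 0.18 SE, adjusted p = 0.19). Pklr, the liver pyruvate kinase, stood at 10.55, 11.69 and 11.05 in CD8kMup livers and 9.98, 10.19 and 10.10 in MupHe livers (1.01 ± 0.22 SE, adjusted p = 0.19). Acaca, the acetyl-CoA carboxylase, differed by 0.45 ± 0.11 (adjusted p = 0.241), and Elovl6, a fatty acid elongase, by 0.82 ± 0.23 (adjusted p = 0.319). The mean deviation of the list was -0.22, 0.22 and 0.30 in the CD8kMup libraries and -0.21, -0.08 and -0.22 in the MupHe libraries, so CD8kMup library 1 was level with the lowest MupHe libraries. Without it, 13 of the 21 genes lay higher, against 16.9% of all genes, and Pklr differed by 1.28. Without CD8kMup library 2 the median was 0.14.

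Cytochrome P450 genes of families 1 to 3 had 12 of 37 kept members higher in all CD8kMup libraries and 2 lower. Of all genes, 8.73% lay higher and 7.74% lower. The median of the list was 0.16. Cyp2c37 was the member that passed. Cyp2c67 stood at 11.44, 11.50 and 11.27 in CD8kMup livers and 11.06, 11.01 and 11.08 in MupHe livers (0.35 ± 0.10 SE, adjusted p = 0.306), and Cyp2a22 differed by 1.03 ± 0.34 (adjusted p = 0.418). These counts were 18 and 4 without CD8kMup library 1, against 16.9% and 16.4% of all genes.

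In bile acid metabolism, members lay in both directions. Of 24 kept genes, 6 lay higher in all CD8kMup libraries and 4 lower, against 8.73% and 7.74% of all genes. The median was 0.03. Cyp7a1, the rate-limiting enzyme of bile acid synthesis, stood at 10.75, 10.82 and 10.62 in CD8kMup livers and 9.13, 9.06 and 9.29 in MupHe livers (1.57 ± 0.39 SE, adjusted p = 0.25). Each group was tight and they were far apart, while IgAkMup livers ranged from 9.99 to 12.00 and B6 livers from 9.17 to 10.43. Fitted on the CD8kMup and MupHe libraries alone, without the spread of the other NC groups, Cyp7a1 had an adjusted p of 7.85e-05. Of 16 alternative settings this was the 1 in which Cyp7a1 passed. Nr0b2 (SHP), the repressor of Cyp7a1, stood at 8.21, 7.38 and 7.74 in CD8kMup livers and 8.32, 8.87 and 8.92 in MupHe livers (-0.92 ± 0.21 SE, adjusted p = 0.19). Nr1h4 (FXR), the bile acid receptor, differed by 0.40 ± 0.09 (adjusted p = 0.19), and Slc10a1, the sodium-dependent bile acid importer, by 0.31 ± 0.08 (adjusted p = 0.296).

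Clock genes and clock-controlled genes had 6 of 21 members higher and 3 lower in all CD8kMup libraries, against 8.73% and 7.74% of all genes. The median was 0.38, with a range of -0.91 to 1.87. Usp2, a clock-controlled ubiquitin peptidase, stood at 7.16, 8.39 and 8.55 in CD8kMup livers and 5.95, 7.19 and 5.36 in MupHe livers, and the groups overlapped (1.87 ± 0.62 SE, adjusted p = 0.424). Wee1, a kinase that holds back mitosis, stood at 6.74, 7.17 and 7.09 in CD8kMup livers and 5.78, 6.20 and 5.52 in MupHe livers (1.16 ± 0.39 SE, adjusted p = 0.433). Bhlhe40 differed by 0.94 ± 0.27 (adjusted p = 0.346) and Hlf by 0.36 ± 0.11 (adjusted p = 0.373). The time of day at which livers were taken is not in the labels, and its part in these and the metabolic values was not tested. B6 library 3 was the lowest NC library on this list, with a mean deviation of -0.57, beside 0.20 and 0.23 in the other B6 libraries. Of the 21 members, 14 lay higher and 5 lower without CD8kMup library 1, against 16.9% and 16.4% of all genes.

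The list of fasting, feeding and glucocorticoid genes that holds Angptl4 had 2 of 22 members higher and 1 lower. Of all genes, 8.73% lay higher and 7.74% lower. The median of the list was -0.01. Pdk4, which is induced by fasting, stood at 6.54, 5.77 and 6.47 in CD8kMup livers and 6.76, 7.21 and 7.44 in MupHe livers (-0.87 ± 0.33 SE, adjusted p = 0.47). G6pc, the glucose-6-phosphatase of gluconeogenesis, differed by 0.69 ± 0.29 (adjusted p = 0.51) with overlapping groups.

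Cell cycle genes all had higher means in CD8kMup livers. Of 24 kept genes, 8 lay higher in all CD8kMup libraries and none lower, against 8.73% and 7.74% of all genes. The median difference was 0.37, with a range of 0.05 to 0.89, and none passed. Mki67, which encodes the Ki-67 protein of dividing cells, stood at 5.75, 6.90 and 6.45 in CD8kMup livers and 5.48, 5.72 and 5.23 in MupHe livers (0.89 ± 0.24 SE, adjusted p = 0.284). Ccnd1, the cyclin of the entry into the cycle, stood at 9.38, 9.91 and 10.03 in CD8kMup livers and 8.72, 9.31 and 8.93 in MupHe livers (0.79 ± 0.20 SE, adjusted p = 0.25). Ccnb2, a mitotic cyclin, differed by 0.67 ± 0.17 (adjusted p = 0.241), and Plk1, a mitotic kinase, by 0.48 ± 0.13 (adjusted p = 0.296).

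The differences from B6 livers were larger. The median of the 24 was 0.57 for CD8kMup minus B6 and 0.13 for MupHe minus B6, and 3 members passed in CD8kMup minus B6, against 1.51% of all genes (186 of 12279). Ccnd1 rose by 1.87 in CD8kMup relative to B6 livers (adjusted p = 0.000422), and also rose by 1.09 in MupHe relative to B6 livers (adjusted p = 0.018). Mki67 rose by 1.22 in CD8kMup relative to B6 livers (adjusted p = 0.0219). Without CD8kMup library 1, 18 of the 24 genes lay higher than MupHe, against 16.9% of all genes. The median was then 0.51, and Mki67 differed by 1.20. Without CD8kMup library 2 the median was 0.23.

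**Figure D3:**
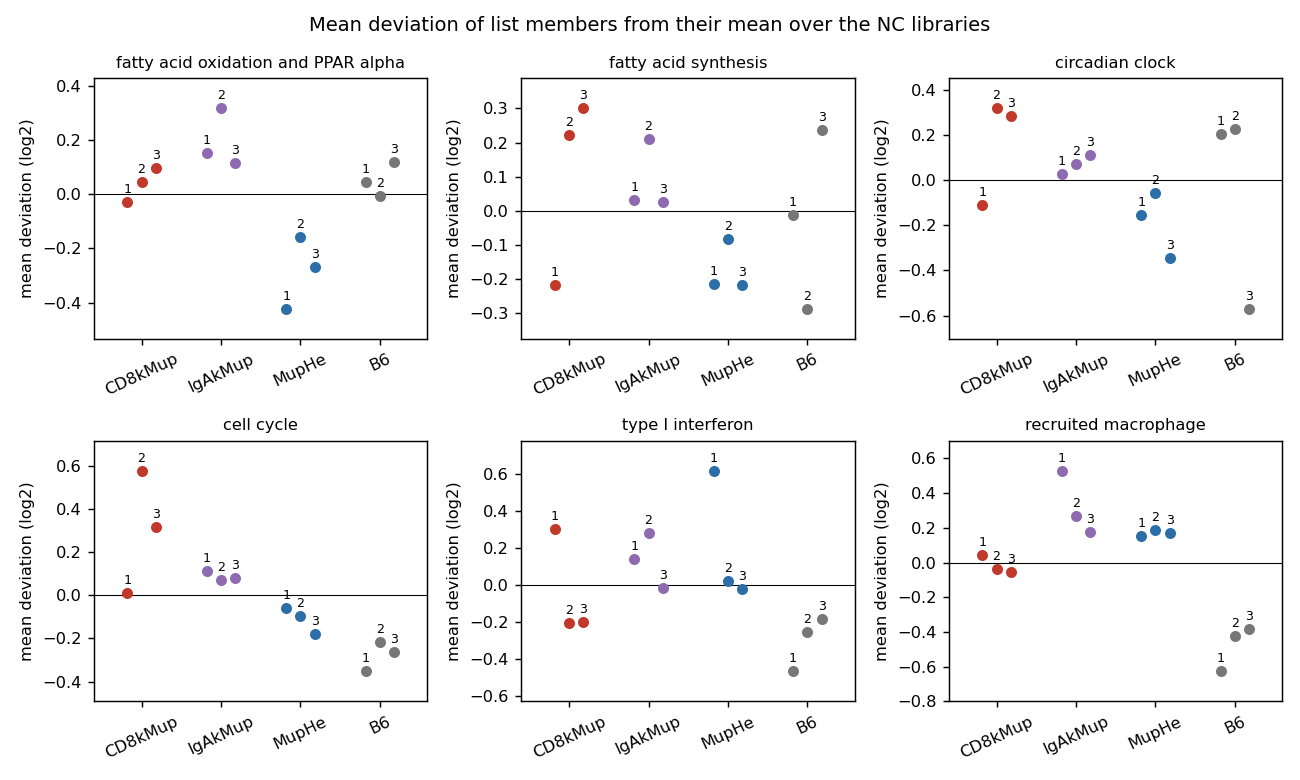
Mean deviation of the members of 6 gene lists from their mean over the 12 NC libraries (log2), 1 point per library with its number, by genotype. CD8kMup library 1 lies between CD8kMup libraries 2 and 3 and the MupHe libraries on the cell cycle list and level with the lowest MupHe libraries on the fatty acid synthesis list.

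T cell and cytotoxic genes were low in all NC livers, and no gene of the immune lists passed. Of 24 genes of T cells and CD8, 9 were kept, with a median difference of 0.14. Only 1 of the 9 lay higher in all CD8kMup libraries, against 8.73% of all genes. This was Tcf7, a transcription factor of naive and memory T cells, at 5.82, 5.94 and 5.96 in CD8kMup livers and 5.34, 5.45 and 5.51 in MupHe livers (0.47 ± 0.13 SE, adjusted p = 0.312). Thy1 differed by 0.30 ± 0.14 (adjusted p = 0.582). Of 23 cytotoxic and NK cell genes only 4 were kept, with a median of 0.09 and no member whose groups did not overlap. Of 18 genes of MHC class I presentation, all kept, 1 lay lower and none higher, against 7.74% and 8.73% of all genes. The median of the 18 was -0.06. Without CD8kMup library 1, 7 of them lay lower, against 16.4% of all genes.

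Jchain, which joins the units of secreted IgA and IgM in plasma cells, had the lowest p among the 6 kept of 22 B cell and plasma cell genes. It stood at 5.61, 5.69 and 5.83 in CD8kMup livers, 7.40, 6.52 and 6.52 in IgAkMup livers, 6.66, 6.53 and 6.80 in MupHe livers and 5.10, 5.33 and 5.55 in B6 livers. The CD8kMup libraries lay below all MupHe and all IgAkMup libraries and above all B6 libraries, with a difference from MupHe of -0.95 ± 0.20 (SE, adjusted p = 0.19). Jchain rose by 1.34 in MupHe relative to B6 livers (adjusted p = 0.00706). In the fit of the CD8kMup and MupHe libraries alone Jchain had an adjusted p of 0.0177, the 1 of 16 alternative settings in which it passed.

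Of 16 kept genes of recruited macrophages, 5 lay lower in all CD8kMup libraries and 1 higher, against 7.74% and 8.73% of all genes. The median was -0.19. Lyz2, the macrophage lysozyme, stood at 9.38, 9.34 and 9.26 in CD8kMup livers and 9.76, 9.49 and 9.82 in MupHe livers (-0.36 ± 0.11 SE, adjusted p = 0.384). Cd68, a lysosomal marker of macrophages, stood at 6.72, 6.89 and 6.82 in CD8kMup livers and 7.27, 7.03 and 7.10 in MupHe livers (-0.32 ± 0.10 SE, adjusted p = 0.401). Clec7a (-0.58 ± 0.22) and Gpnmb (-0.50 ± 0.26), a marker of lipid-associated macrophages, had overlapping groups. The medians of this list were 0.36 for CD8kMup minus B6 and 0.60 for MupHe minus B6. Gpnmb rose by 1.50 in CD8kMup relative to B6 livers (adjusted p = 0.0125), so it stood above B6 in both Mup genotypes.

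Of 16 Kupffer cell genes, 2 lay lower and 1 higher, near the 7.74% and 8.73% of all genes, with a median of -0.15. The median was -0.01 without MupHe library 1 and -0.24 without MupHe library 2. Timd4, a marker of resident Kupffer cells, stood at 5.50, 5.68 and 5.62 in CD8kMup livers and 6.18, 5.79 and 6.23 in MupHe livers (-0.46 ± 0.14 SE, adjusted p = 0.401), and Slc40a1, the iron exporter, was the member that lay higher (0.36 ± 0.13 SE, adjusted p = 0.468). Against IgAkMup livers, 10 of the 16 Kupffer cell genes lay lower in all CD8kMup libraries, with a median of -0.43, where 6.25% of all genes did so. C1qb, for example, stood at 8.93, 8.84 and 8.99 in CD8kMup livers and 9.42, 9.46 and 9.48 in IgAkMup livers.

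Type I interferon genes had a median difference of -0.28 over 30 genes, 26 of them below 0. Only 1 of the 30 lay lower in all CD8kMup libraries, against 7.74% of all genes. This was Oas2 (-0.42 ± 0.14 SE, adjusted p = 0.424). Oasl1 differed by -0.52, Isg15 by -0.51 and Herc6 by -0.32, each with overlapping groups. The mean deviation of the list was 0.30, -0.21 and -0.20 in the CD8kMup libraries and 0.61, 0.02 and -0.02 in the MupHe libraries. Library 1 was the highest of each genotype. Without CD8kMup library 1 the median was -0.39 and 19 genes lay lower, against 16.4% of all genes. Without MupHe library 1 the median was -0.03 and 1 gene lay lower, against 12.8% of all genes. The size of this difference therefore depends on which library is left out.

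Among acute phase genes, 2 of 25 lay lower and 1 higher, against 7.74% and 8.73% of all genes, with a median of -0.12. Socs3, the feedback inhibitor of cytokine signalling, stood at 5.89, 5.36 and 5.43 in CD8kMup livers and 6.13, 6.23 and 6.21 in MupHe livers (-0.63 ± 0.13 SE, adjusted p = 0.19), and Lbp, the endotoxin-binding protein, differed by -0.33 ± 0.12 (adjusted p = 0.467). The 23 kept genes of stellate cells and scar matrix had a median of -0.16. Among them 1 lay lower and none higher, against 7.74% and 8.73% of all genes. This was Col4a2, a basement membrane collagen chain, at 8.25, 8.12 and 8.18 in CD8kMup livers and 8.44, 8.46 and 8.72 in MupHe livers (-0.36 ± 0.10 SE, adjusted p = 0.373). Col4a2 rose by 0.52 in CD8kMup relative to B6 livers (adjusted p = 0.0281) and by 0.88 in MupHe relative to B6 livers (adjusted p = 0.00145). Pdgfrb, a receptor of activated stellate cells, differed by -0.31 ± 0.13 (adjusted p = 0.509). Of 22 sinusoidal endothelium genes, 1 lay lower and 1 higher, against 7.74% and 8.73% of all genes, with a median of 0.04. These were Lyve1 (-0.74 ± 0.16 SE, adjusted p = 0.19) and Dnase1l3 (0.32 ± 0.09 SE, adjusted p = 0.306), and the other 20 genes had overlapping groups.

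Stress genes of the endoplasmic reticulum, which urokinase expression loads, had a median difference of -0.04. Of 24 genes, 5 lay lower in all CD8kMup libraries and 2 higher, against 7.74% and 8.73% of all genes. Dnajb9, a target of the unfolded protein response, stood at 8.81, 8.94 and 9.36 in CD8kMup livers and 9.81, 9.59 and 9.92 in MupHe livers (-0.73 ± 0.14 SE, adjusted p = 0.167). Hspa5 (BiP), the main chaperone, stood at 12.93, 13.15 and 13.36 in CD8kMup livers and 13.45, 13.45 and 13.49 in MupHe livers (-0.32 ± 0.10 SE, adjusted p = 0.401), and Hyou1 differed by -0.31 ± 0.11 (adjusted p = 0.44). Derl3, which helps to retrieve misfolded proteins, lay on the other side, at 7.46, 7.47 and 7.63 in CD8kMup livers and 6.86, 7.03 and 6.93 in MupHe livers (0.58 ± 0.16 SE, adjusted p = 0.306). Derl3 rose by 2.35 in CD8kMup relative to B6 livers (adjusted p = 6.9e-06) and by 1.77 in MupHe relative to B6 livers (adjusted p = 0.000127). Of 22 kept genes of the integrated stress response, 5 lay lower and none higher, against 7.74% and 8.73% of all genes. Their median was -0.04, and Mthfd2, a mitochondrial folate enzyme, differed by -0.51 ± 0.14 (adjusted p = 0.284).

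**Figure D4:**
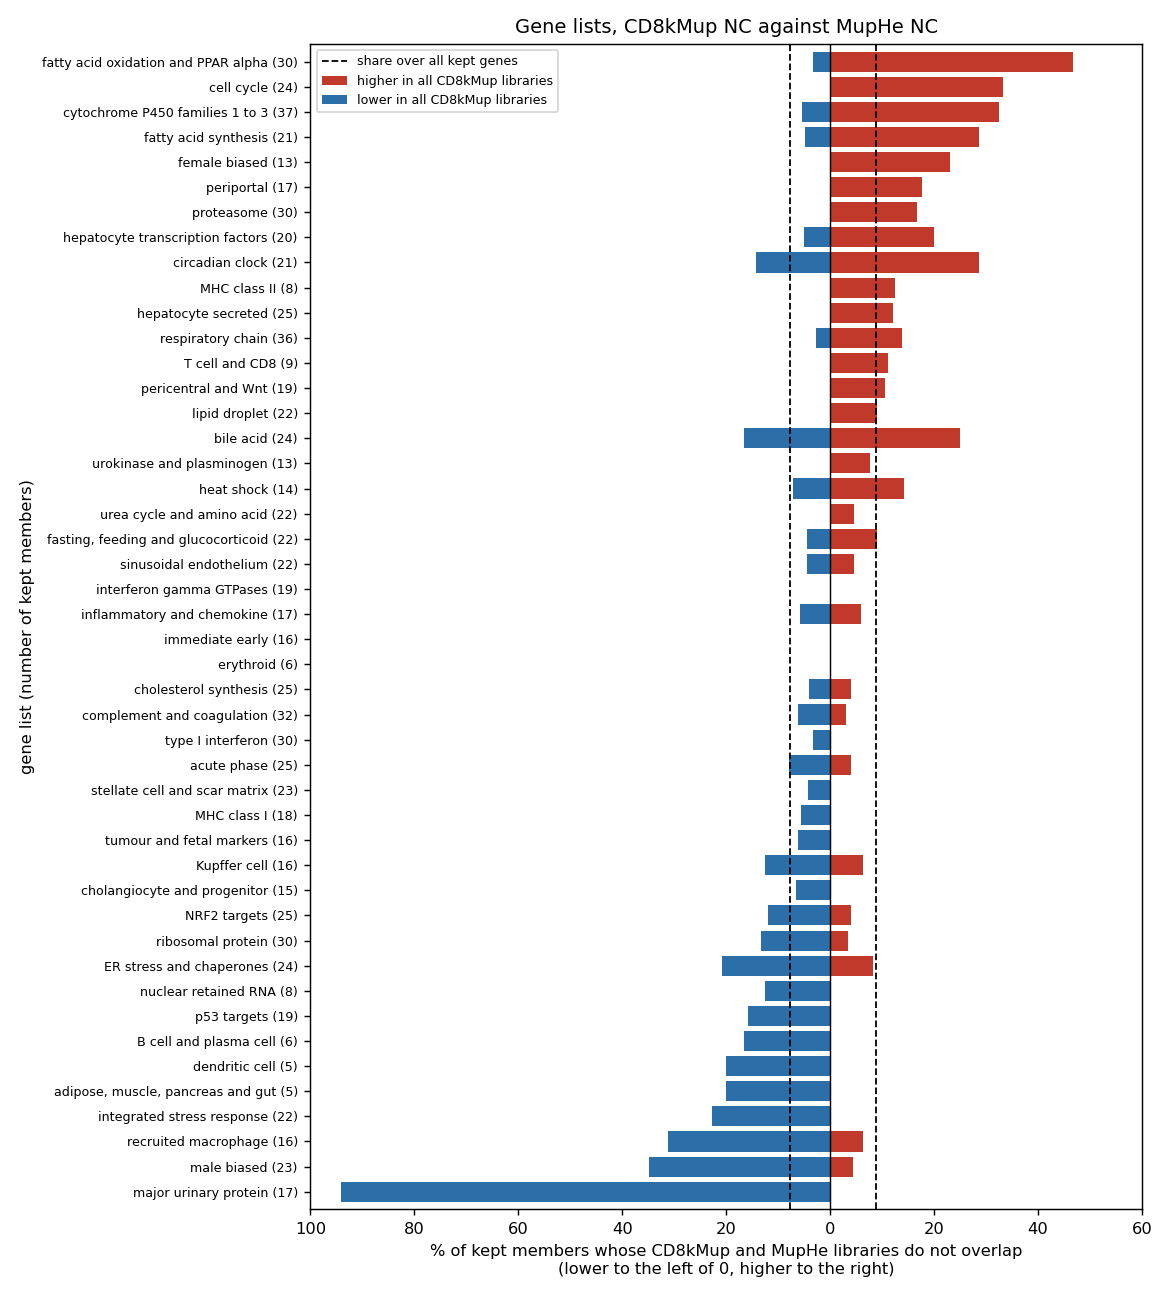
Share of the kept members of each list whose CD8kMup and MupHe libraries do not overlap, with members higher in all CD8kMup libraries to the right and lower to the left, for the 46 lists with at least 5 kept members. Dashed lines mark the shares over all 12279 genes, 8.73% higher and 7.74% lower, and the major urinary proteins and fatty acid oxidation genes reach furthest beyond them.

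Whether the CD8kMup livers differ from MupHe livers as IgAkMup livers do is tested by CD8kMup minus IgAkMup, in which MupHe cancels. In it 4 genes passed, 0.0326% of those tested. Serpina3c, a serine protease inhibitor of a multigene cluster on chromosome 12, stood at 3.76, 3.64 and 2.84 in CD8kMup livers and 9.58, 9.08 and 9.85 in IgAkMup livers, a difference of -6.09 (adjusted p = 3.99e-08). Its neighbour Serpina3m averaged 11.18 ± 0.27 in CD8kMup livers and 12.97 ± 0.35 in IgAkMup livers (SD, n = 3 each), and the groups did not overlap (-1.79, adjusted p = 0.0125). In both genes it was the IgAkMup libraries that stood away from all other NC livers. Derl3 stood at 6.32, 6.00 and 6.46 in IgAkMup livers, below the CD8kMup values given above (1.26, adjusted p = 0.0125). The ER stress list that holds it had 15 of 24 genes higher in all CD8kMup than in all IgAkMup libraries, with a median of 0.30, where 6.40% of all genes did so. Rpl34-ps1, a ribosomal protein pseudogene whose reads may come from its parent gene, averaged 7.997 ± 0.014 in CD8kMup livers and 7.19 ± 0.24 in IgAkMup livers (SD, n = 3 each), and the groups did not overlap (0.81, adjusted p = 0.0434). The 6 genes that differed from MupHe did not pass in this comparison. All 6 had the same sign in IgAkMup minus MupHe, which shares the MupHe libraries. The direction was thus seen in both genotypes. Both differences subtract the same MupHe values, so this count is no independent support for a shared direction.

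Genes around Cd8a were examined because a targeted allele travels with its flanking chromosome. The 50 kept genes on each side span 33.05 Mb of chromosome 6, from 50293330 to 83343776. Of these 100 genes, 1 passed the test (Nt5c3), and the median difference was -0.00. In all CD8kMup libraries 15 lay higher and 12 lower, against 8.73% and 7.74% of all genes. On all of chromosome 6, 16.7% of kept genes had groups that did not overlap in either direction, which is below the share among these neighbours, where members of both directions were present. The part of the flanking chromosome in these values was not tested.

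**Figure D5:**
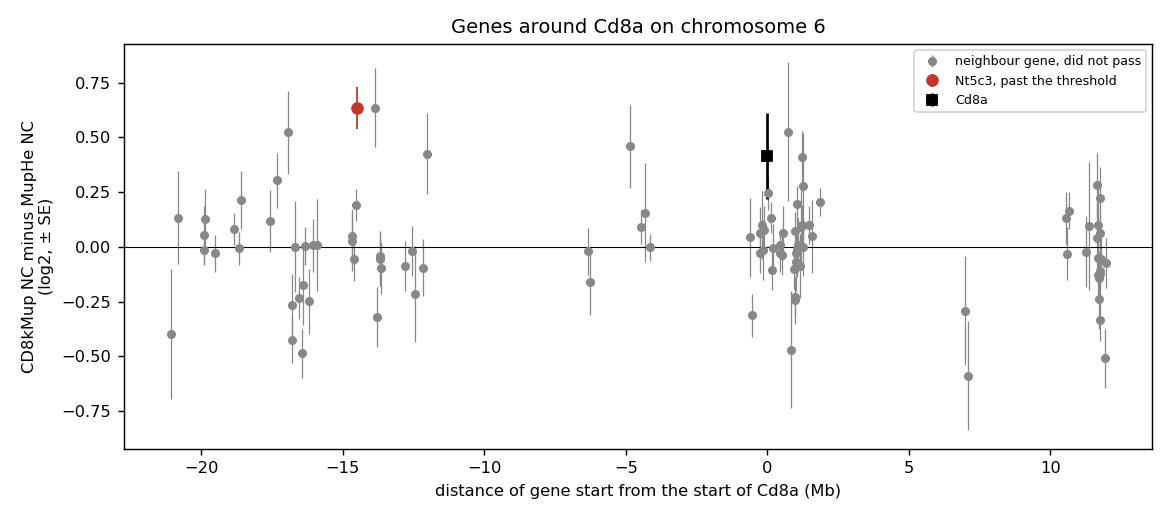
Difference CD8kMup NC minus MupHe NC (log2, with SE) of the 50 kept genes on each side of Cd8a, by the distance of their start from that of Cd8a in Mb. Nt5c3, in red, is the neighbour past the threshold, at 0.64, and the others scatter on both sides of 0.

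The same genotypes were also compared in tumours, in libraries that share none with the NC comparison (3 of CD8kMup HCC and 4 of MupHe HCC). The titles of the tumours carry HFD where those of the livers carry NC, and their columns carry the tag SS instead of Tri. Tissue, HFD and column tag therefore change together between the tumour and NC contrasts and cannot be told apart. In the tumours 71 of 12342 genes passed, 0.575%. Of the 6 genes that differed in NC livers, 5 had the same sign in tumours and 1 passed there. This was Cyp2c37, at 7.88, 8.51 and 9.42 in CD8kMup tumours and 7.95, 5.39, 5.78 and 5.94 in MupHe tumours (2.33, adjusted p = 0.0275), with groups that overlapped. Nnt stood at 8.99, 9.25 and 9.46 in CD8kMup tumours and 10.31, 10.07, 9.59 and 9.42 in MupHe tumours (-0.62, adjusted p = 0.0899). Fitted on the tumours alone, no gene passed by limma, with 709 genes at an unadjusted p under 0.05. Mup17 averaged 7.83 ± 1.78 (SD, n = 3) in CD8kMup tumours and 5.83 ± 0.69 (SD, n = 4) in MupHe tumours (2.00, adjusted p = 0.24). The difference between the contrast in tumours and that in NC livers was tested for every gene, and by limma 0 passed, with a smallest adjusted p of 0.0534 and 1073 genes at an unadjusted p under 0.05.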

How the data were processed

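The authors deposited 1 table of regularized log2 values, which per the submitters' processing notes came after STAR, HOMER and DESeq2 with mm10; their versions and roles are not stated. Rlog scales libraries to a common size and shrinks weak genes, whose differences can be understated. Libraries were made from 100 ng of RNA with a TruSeq stranded kit, per the labels, from AllPrep columns or, for some livers, Trizol and RNeasy. NC columns matched samples by name, and 6 columns of other groups matched more than 1 group and were not used. The 4 NC groups entered 1 limma fit (limma 3.58.1, R 4.3.3; eBayes with trend), with genes of mean rlog at least 3 kept and Benjamini-Hochberg adjustment over all of them. The fit is of the NC libraries only, since the spread of tumours need not hold for them. Tumours were fitted with the NC groups, and single genes were tested by exact permutation (scipy 1.17.1). The script was tested on simulated data. Positions are from GENCODE on GRCm38.

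Named genes were those past 0.05 (filled by smallest p up to 5 a side), those past 0.05 against IgAkMup, and up to 4 per list by smallest p; the major urinary protein genes shown by sequence were added, and Mup21 was named after its values were seen. The members and the 48 lists were chosen with earlier results of these data known. Alternatives were other sets of libraries, filters, scalings, variance models, library weights, a replicate block and leaving out each library. Libraries of the same number correlated by 0.28, 0.16 and 0.15 in their deviations between MupHe and B6. Between CD8kMup and IgAkMup these values were 0.19, 0.05 and 0.22. Such weak values do not establish that the numbers pair the groups. A replicate block was added for MupHe minus B6 after seeing the data.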

Additional observations from a re-analysis of the deposited data

Results flagged for a closer look

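The difference from MupHe was not the same in CD8kMup and IgAkMup livers for 4 genes, by the limma test of CD8kMup minus IgAkMup. It was 1.26 for Derl3, 0.811 for Rpl34-ps1, -6.09 for Serpina3c and -1.79 for Serpina3m. This comparison gave 1 to 5 genes when a library was left out, and 1 to 3 of the 4 genes were among them. Genes passed in the higher direction only without IgAkMup library 3, so Derl3 and Rpl34-ps1 lost their call in the other fits of this kind.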

How the results depend on the processing

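The count of genes past 0.05 for CD8kMup minus MupHe was 6. It was 2 with all mapped groups in the fit (none of the 6), 25 with only these groups (5 of the 6), 3 without trend, 63 with library weights and 0 to 55 when a library was left out. Robust eBayes, other scalings and a filter at a mean of at least 5 gave the same 6. With no filter on the mean the count was 7, and 4 of the 6 were among them. Numbers do not pair CD8kMup with MupHe: libraries of the same number correlated by -0.01, 0.14 and -0.13 in their deviations, and of the CD8kMup libraries only library 2 correlated best with its own number. With the number as a replicate block the count was 3.

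CD8kMup minus IgAkMup, with 4 genes, gave 1 with all mapped groups, 7 with library weights and 1 to 5 when a library was left out. CD8kMup minus B6, with 186, gave 9 with all mapped groups, 61 with only these groups, 66 with no filter and 72 to 199 when a library was left out. In tumours, with 71, it gave 163 with all mapped groups, 0 with only these groups, 107 under median centring, 130 under quantile normalization, 24 with library weights and 10 to 1076 when a library was left out. The tumour contrast against the NC contrast, with 0, gave 6 with all mapped groups, 1 each with no filter, median centring and no trend, and 0 to 109 when a library was left out. MupHe minus B6, with 186, gave 113 with the replicate block (108 of the 186), and 61 with the block and only these groups (45 of the 186). None of the genes named for MupHe minus B6 lost its call under either block. The cause of these changes was not tested.

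Of 1270 alternative values of 80 named genes, 1180 stayed on the same side of the threshold, 42 no longer passed, 46 newly passed and 2 changed sign. Most of the 80 genes had not passed in the main fit, and all 42 losses fell on the 6 that had. Of 16 alternatives each, Neat1 passed in 12, Nnt in 11, Hist1h1c in 9, Srp68 in 8, and Cyp2c37 and Nt5c3 in 7. The sign changed for Plau, which ranged from -0.191 to 0.0846 when a library was left out, and for Serpina3c, which ranged from -0.430 to 0.0305. Of 767 alternative list medians, 20 moved by more than the spread between libraries. Without counts, the depth behind weak genes cannot be judged.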

Other observations

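Several lists not described above had members whose groups did not overlap. Of all kept genes, 8.73% lay higher in all CD8kMup than in all MupHe libraries and 7.74% lower. Of 36 respiratory chain genes, which encode subunits of mitochondrial electron transport, 5 lay higher and 1 lower, with a median difference of 0.08. Ndufs1, a subunit of complex I, stood at 10.20, 10.33 and 10.35 in CD8kMup livers and 10.03, 10.07 and 10.16 in MupHe livers (0.20 ± 0.07 SE, adjusted p = 0.429 by limma). When CD8kMup library 1 was left out, 21 of the 36 lay higher and 1 lower, against 16.9% and 16.4% of all genes. Of 30 proteasome genes, 5 lay higher and none lower, against 8.73% and 7.74% of all genes, with a median of -0.01. Of 32 kept complement and coagulation genes, 1 lay higher and 2 lower, both below the shares of all genes, with a median of -0.06. Without CD8kMup library 1, 15 of them lay lower, against 16.4% of all genes. MHC class II genes had 1 of 8 kept members higher, against 8.73% of all genes. This was H2-DMa, at 5.93, 5.54 and 5.68 in CD8kMup livers and 5.42, 5.20 and 5.39 in MupHe livers (0.38 ± 0.12 SE, adjusted p = 0.401 by limma). The lists of interferon gamma GTPases (19 kept), immediate early genes (16 kept) and erythroid genes (6 kept) had no member whose groups did not overlap.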
